A study of Arabidopsis thaliana with 4 samples.

Results

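Among the transcripts on the array, 45 were detected in salt-treated sahy9-1 seedlings and not in salt-treated Col-0 seedlings. They were 0.128% of the 35137 transcripts that the array measured. The same rule with the genotypes exchanged found 7 transcripts, or 0.0199%, detected only in Col-0. The transcripts were chosen by their measured signal and detection flags: at least 1 probe had to be well above background on both sahy9-1 arrays, with an intensity of 100 or more on each, and well above background on neither Col-0 array. Leaving out the second Col-0 array gave 77 transcripts, and leaving out any other array 46 to 62. Leaving out an array drops a condition of the rule, so that the number could only stay or rise. Well above background is a flag that the feature extraction software gives each spot, and intensity is the brightness of a spot after background subtraction, in arbitrary units. Because the measured values chose the transcripts, their difference between the genotypes is given as a description and has no test.

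Both genotypes were Arabidopsis thaliana seedlings grown for 10 days and then kept for 1 day on 150 mM NaCl, and total RNA was taken from whole seedlings. The sahy9-1 line carries a T-DNA in an exon of APUM23 and came from a screen of T-DNA insertion lines, so that the mutant is a single insertion line, while Col-0 is the wild type. Each genotype had 2 samples, each labeled with Cy3 and hybridized to its own Agilent array. Both genotypes were thus compared under salt, and untreated seedlings were not analysed here. The methods call the 2 samples of a genotype biological experiments, and their small number limits the precision of every value.

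APUM23 is a pumilio protein of the nucleolus with a role in processing of the ribosomal RNA precursor. Pumilio proteins bind RNA through a repeated domain, and many of them act on the stability or translation of their target messages. A microarray probe reports the amount of the transcript it pairs with, and a transcript near the background is not thereby shown to be absent. In RNA from whole seedlings, fewer cells that express a transcript and less of it per cell cannot be told apart.

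The sahy9-1 arrays were somewhat brighter, with a median intensity of 599 and 535 in sahy9-1, against 511 and 491 in Col-0, and the minimum of 100 was set on unscaled intensities. With the minimum of 100 set after scaling, 43 transcripts met the rule, all of them among the 45. Of the spots for genes, 76.1% and 76.4% were well above background on the sahy9-1 arrays, against 74.6% and 76.3% on the Col-0 arrays. The lowest intensity flagged as well above background was 19.1 and 16.9 on the sahy9-1 arrays, against 21.2 and 16.7 on the Col-0 arrays. APUM23 itself read 329 and 247 in sahy9-1, against 1858 and 2037 in Col-0, 7.71-fold lower in sahy9-1 (limma adjusted p = 0.000933). This rests on 1 of its 2 probes, as the other was not well above background on any of the 4 arrays, and the mean of both gave a log2 difference of -1.92. All 6 shoot markers and all 10 root markers were well above background on both arrays of both genotypes. Of 8 pollen markers, 0 were detected on both arrays of either genotype. Of 15 seed markers, 5 were detected on both arrays in sahy9-1 and 4 in Col-0, and their summed intensity was 459 and 411 in sahy9-1, against 634 and 323 in Col-0. Of 7 flower markers, 4 were detected in sahy9-1 and 5 in Col-0, with a summed intensity of 2018 and 1821 in sahy9-1, against 1464 and 1312 in Col-0. Most of the flower sum came from SEP3, which read 1558 and 1437 in sahy9-1, against 1043 and 972 in Col-0. SEP3 was 1.315-fold higher in sahy9-1 (limma adjusted p = 0.00998). What part these cell types had in the results below was not tested.

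The level of the 45 transcripts in sahy9-1 spread widely. Their mean intensity over the sahy9-1 arrays ran between 106 and 2707, with a median of 199.7. Of these, 5 averaged over 500, 17 lay between 200 and 500, and 23 were under 200. On the Col-0 arrays the same probes read between 3.24 and 22.1, with a median of 10.08. The intensities of the genotypes thus did not overlap for any of the 45, which the rule itself fixes. Levels are read by different probes, so their order is an order of signal and not of transcript amount.

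**Figure D1:**
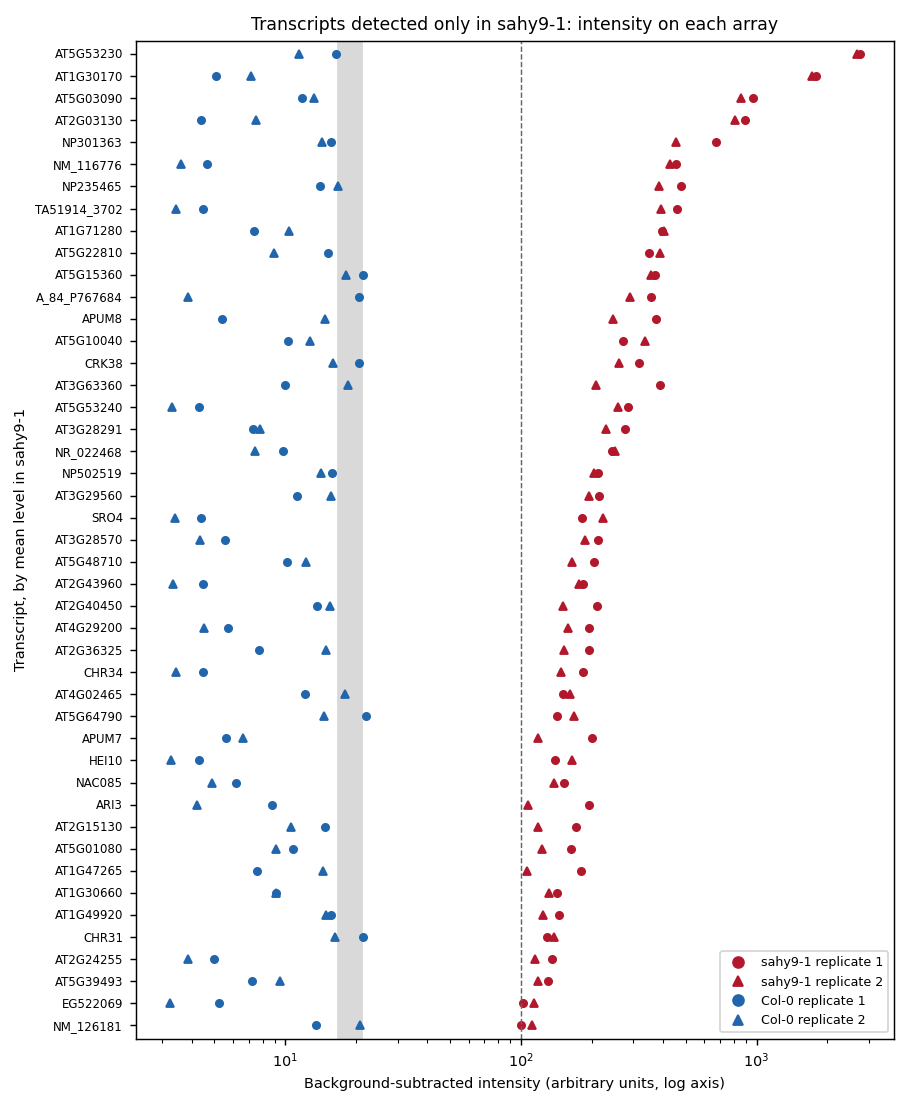
Intensity of the 45 transcripts on each of the 4 arrays, on a log axis in arbitrary units, ordered by their level in sahy9-1. Red points are the 2 sahy9-1 arrays and blue points the 2 Col-0 arrays. The gray band spans the lowest intensities flagged as well above background on the 4 arrays, 16.7 to 21.2, and the dashed line is the minimum of 100; every red point lies right of that line, and no blue point exceeds 22.1.

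Since Col-0 gave no reading well above background, a fold change is a lower bound. It sets the mean log2 level in sahy9-1 against the mean, over the Col-0 arrays, of the higher of the probe's own signal and the lowest signal well above background on that array, after each array was scaled to its 75th percentile. By this measure the transcripts were at least 4.48-fold to at least 127-fold higher in sahy9-1, with a median bound of 9.38-fold. The bound was 20-fold or more for 8 transcripts and 10-fold or more for 19. With a normexp background correction in place of the deposited one, the median bound was 0.48 on the log2 scale and 4 transcripts had a bound below 0, NAC085 among them.

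The reading in Col-0 was itself of 2 kinds. For 28 transcripts the Col-0 signal was significantly above the local background on both arrays, though under the stricter flag of the rule, and for 7 it was so on 1 array. For the other 10 it was so on neither. For spots without that significance the deposited intensity equals the software's error estimate, and it is not a measured level. This also holds for the 7 on their other Col-0 array. The 10 without it on both arrays were NM_116776, TA51914_3702, AT5G53240, SRO4, AT3G28570, AT4G29200, CHR34, HEI10, NAC085 and AT2G24255.

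AT5G53230 gave the highest signal of the 45. It read 2747 and 2668 in sahy9-1, against 16.4 and 11.4 in Col-0, at least 127-fold higher. AT1G30170 read 1782 and 1718 in sahy9-1, against 5.08 and 7.15 in Col-0, at least 82.4-fold higher. For both genes the sahy9-1 arrays differed little from each other, by a ratio of 1.03 for AT5G53230 and 1.04 for AT1G30170. AT5G03090 read 963 and 862 in sahy9-1, against 11.7 and 13.2 in Col-0, a bound of 42.9-fold. AT2G03130, annotated by the study as a protein of the ribosomal L12 and ClpS adaptor kind, read 896 and 814 in sahy9-1, against 4.37 and 7.54 in Col-0, a bound of 40.2-fold. The ribosomal L12 fold and the Clp protease adaptor fold resemble each other, which is why such proteins carry a joint name.

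The next 4 by level had no locus in the annotation and are known by the array's own transcript names. NP301363 read 670 and 457 in sahy9-1, against 15.7 and 14.3 in Col-0, at least 26.0-fold higher. NM_116776 read 453 and 428 in sahy9-1, against 4.67 and 3.59 in Col-0, at least 20.7-fold higher. NP235465 read 476 and 386 in sahy9-1, against 14.1 and 16.7 in Col-0, at least 20.2-fold higher. The last of them, TA51914_3702, read 459 and 394 in sahy9-1, against 4.49 and 3.42 in Col-0, at least 20.03-fold higher.

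The 20 transcripts with the highest mean log2 level in sahy9-1 were completed by weaker ones. AT1G71280 read 395 and 407 in sahy9-1, against 7.38 and 10.3 in Col-0, and AT5G22810 read 348 and 391 in sahy9-1, against 15.2 and 8.93 in Col-0. AT5G15360 read 372 and 357 in sahy9-1, against 21.4 and 18.0 in Col-0, so that its Col-0 signal lay at the edge of detection. A_84_P767684 read 358 and 290 in sahy9-1, against 20.6 and 3.85 in Col-0, where its arrays differed most. Its Col-0 signal was significantly above background on only 1 array, so that this difference is not one between 2 measured levels. AT5G10040 read 271 and 337 in sahy9-1, against 10.3 and 12.7 in Col-0, and AT3G28291 read 275 and 229 in sahy9-1, against 7.33 and 7.80 in Col-0. AT3G63360 had the widest spread between the sahy9-1 arrays, with 387 and 208, a ratio of 1.87, against 9.99 and 18.4 in Col-0. NR_022468 read 243 and 252 in sahy9-1, against 9.79 and 7.42 in Col-0, and NP502519 read 211 and 205 in sahy9-1, against 15.8 and 14.2 in Col-0. The bounds of these 9 ran between 9.80-fold for NP502519 and 18.9-fold for AT1G71280. The other 3 of the 20, APUM8, CRK38 and AT5G53240, are described with their families or neighbors.

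The sahy9-1 arrays agreed closely on most of the 45. The SD of the log2 level between them had a median of 0.09 and a maximum of 0.51, for AT3G63360. The higher intensity was a median of 1.17 times the lower, and the first array had the higher intensity in 34 of 45. After each array was scaled to its 75th percentile, the log2 level was higher on the first array in 21 of 45.

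Of the 45 transcripts, 36 matched a locus of the TAIR10.1 annotation by accession and 9 did not. Besides the 7 unmatched transcripts already named, these were EG522069 and NM_126181, the 2 with the lowest level of all. A gene symbol was given for 9 of the 36 (25.0%), while 40.1% of all matched transcripts had one. The 9 were APUM7, APUM8, CHR31, CHR34, HEI10, ARI3, SRO4, CRK38 and NAC085, and they were named here because the annotation has a symbol for them. Symbols and synonyms placed 4 of the 45 in a functional class, namely both pumilio genes, CRK38 among the receptor-like kinases and NAC085 among the transcription factors. Of all 26309 matched transcripts on the array, 24 were in the pumilio class, 150 in the receptor-like kinases and 785 in the transcription factors. The match on symbols leaves out genes without a telling symbol, such as AT2G03130, so that it gives no count of ribosomal or other classes among the 45.

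RNA-binding proteins were represented by APUM8 and APUM7. APUM8 read 375 and 245 in sahy9-1, against 5.37 and 14.8 in Col-0, at least 14.3-fold higher by the array signal. The study's quantitative RT-PCR under the same salt treatment also measured APUM8 in Col-0. It gave a smaller fold difference between sahy9-1 and Col-0 than this bound. APUM7 read 200.1 and 118 in sahy9-1, against 5.604 and 6.62 in Col-0, at least 7.24-fold higher. For both genes the first sahy9-1 array was the brighter, by a ratio of 1.53 for APUM8 and 1.69 for APUM7. A second probe for APUM7 read 3.92 and 3.56 in sahy9-1, against 4.40 and 3.39 in Col-0, never well above background, so that the detection of APUM7 rests on 1 of its 2 probes.

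The array carried 24 pumilio genes, and for 11 of them no array was well above background. Besides APUM7 and APUM8, 8 were bright enough to be tested with limma. Over all 22417 transcripts tested, 1.62% were called higher in sahy9-1 and 1.58% lower, for a change of at least 3-fold with an adjusted p no higher than 0.05. Of the 8 pumilio genes, APUM12 was called higher and APUM23 lower. APUM12 read 586 and 544 in sahy9-1, against 47.8 and 96.6 in Col-0, 7.35-fold higher (limma adjusted p = 0.00555), and unlike APUM7 and APUM8 it was well above background in both genotypes. With the normexp correction its adjusted p was 0.299. On the adjusted p alone, 6 of the 8 were higher and 2 lower, where 25.3% of all transcripts tested were higher and 24.0% lower.

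Chromatin remodelers of the Snf2 family were represented by CHR31 and CHR34. The group to which they belong also holds DRD1 and CLASSY1, also named CHR38, which act in RNA-directed DNA methylation. CHR34 read 183 and 147 in sahy9-1, against 4.47 and 3.43 in Col-0, at least 7.72-fold higher, by its only probe. CHR31 read 129 and 138 in sahy9-1, against 21.4 and 16.3 in Col-0, at least 6.25-fold higher by the probe that met the rule. DRD1 read 770 and 644 in sahy9-1, against 920 and 811 in Col-0, a log2 difference of -0.47 (limma adjusted p = 0.00987). CHR38 read 451 and 384 in sahy9-1, against 329 and 316 in Col-0, a log2 difference of 0.19 (limma adjusted p = 0.0623). CHR40 read 74.9 and 58.9 in sahy9-1, against 71.2 and 67.3 in Col-0, too low to be tested, and CHR42 was detected on no array. Of 16 other transcripts named as chromatin remodeling proteins and tested with limma, 0 were called. Over all transcripts tested, 1.62% were called higher and 1.58% lower. An unadjusted p under 0.05 was reached by 7 of the 16, none with a change of 3-fold, while the methods' t-test gave 12 at that unadjusted level. On the adjusted p alone, 3 of the 16 were higher and 0 lower, where 25.3% of all transcripts tested were higher and 24.0% lower.

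**Figure D2:**
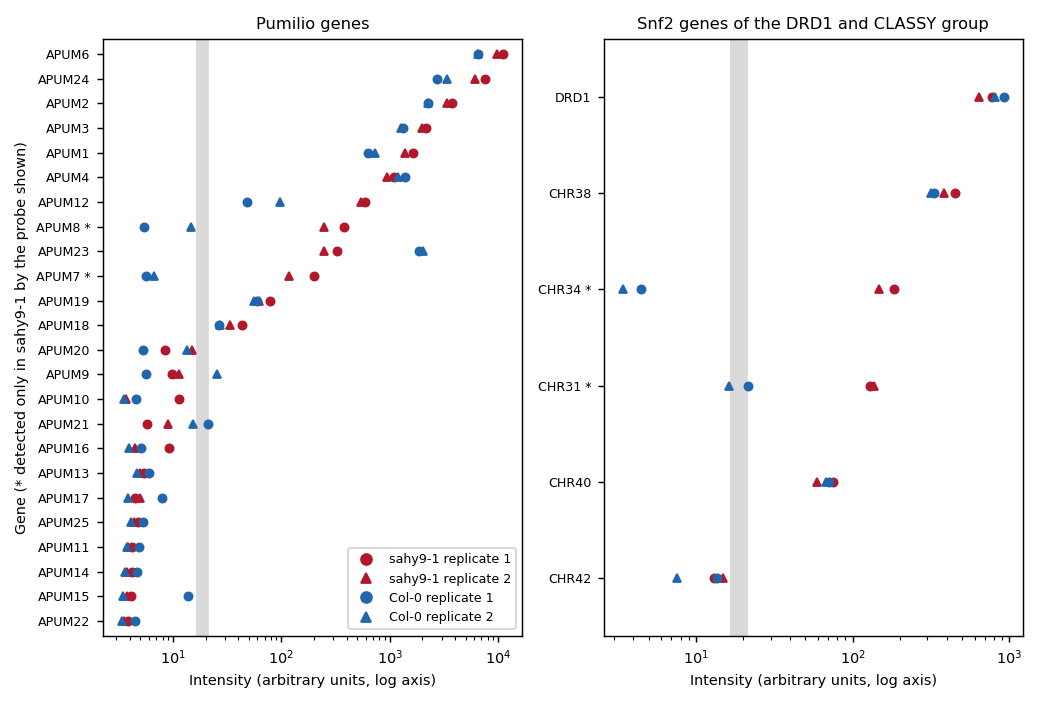
Intensity on each array, on log axes in arbitrary units, of the 24 pumilio genes (left) and the 6 Snf2 genes of the DRD1 and CLASSY group (right), with red points for sahy9-1 and blue points for Col-0. The gray band spans the lowest intensities flagged as well above background, 16.7 to 21.2. APUM8, APUM7, CHR34 and CHR31, marked by an asterisk, have red points above 100 and no blue point beyond 21.4, while APUM23 is the gene whose red points lie far left of its blue ones.

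The label of these transcripts as detected only in sahy9-1 holds for probes, and for CHR31 and HEI10 other probes go against it. CHR31 had 4 probes. Of those that did not meet the rule, 1 read 827 and 766 in sahy9-1, against 88.8 and 75.05 in Col-0, and another read 551 and 554 in sahy9-1, against 67.3 and 44.0 in Col-0. By these probes CHR31 was detected in both genotypes and was 8.63-fold and 8.98-fold higher in sahy9-1. The last of its probes read 44.1 and 49.6 in sahy9-1, against 5.42 and 4.17 in Col-0, and was detected only in sahy9-1 but fell below the minimum of 100.

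HEI10, which encodes a protein that promotes crossovers in meiosis, read 140 and 164 in sahy9-1, against 4.29 and 3.27 in Col-0, by the probe that met the rule, at least 7.13-fold higher. Its other probe read 441 and 398 in sahy9-1, against 203 and 173 in Col-0, a difference of 1.97-fold. HEI10 transcript was therefore detected in both genotypes, and its 2 probes differed in the size of the change.

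In all, 8 of the 45 transcripts had several probes. For AT5G10040, SRO4, AT4G02465 and AT5G01080 every probe was detected in sahy9-1 and not in Col-0. Both probes of SRO4 met the rule, the second with 115 and 152 in sahy9-1, against 4.64 and 3.56 in Col-0. For AT5G10040 the second probe read 191 and 219 in sahy9-1, against 9.39 and 9.37 in Col-0. The other probe of AT4G02465 read 97.8 and 113 in sahy9-1, against 4.53 and 14.6 in Col-0, and so missed the minimum on the first sahy9-1 array. AT5G01080 had 2 probes that met the rule and another that read 37.3 and 33.3 in sahy9-1, against 5.31 and 4.16 in Col-0. AT4G29200 resembled APUM7 in that its other probe was detected on no array.

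**Figure D3:**
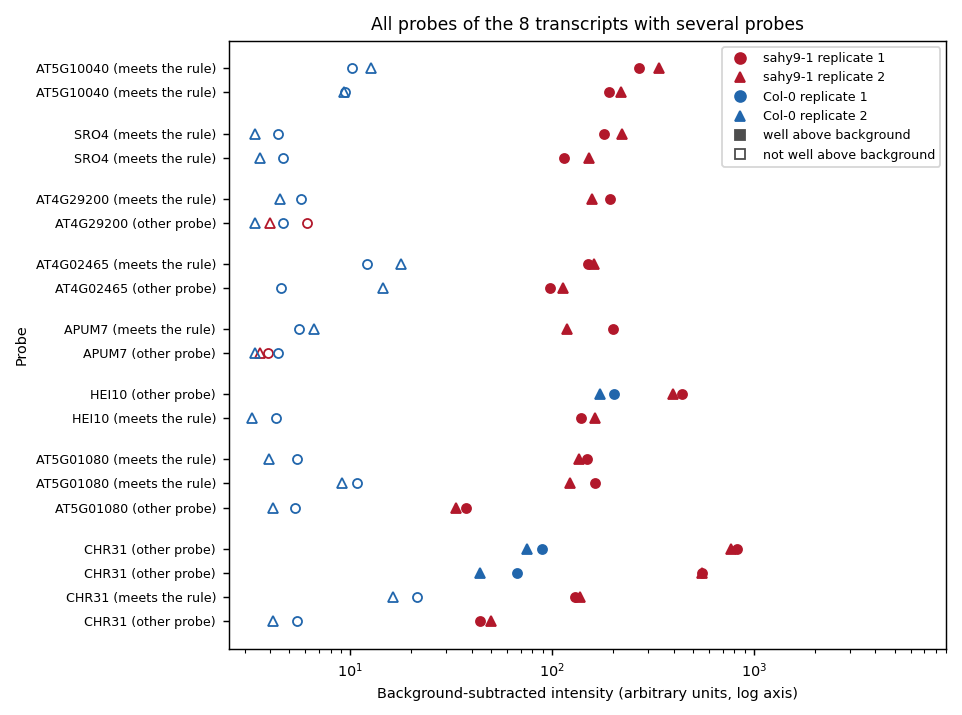
Intensity on each array, on a log axis in arbitrary units, of every probe of the 8 transcripts with several probes, with red symbols for sahy9-1 and blue symbols for Col-0. Filled symbols were well above background and open ones were not. Filled blue symbols occur for 1 probe of HEI10 and 2 probes of CHR31, and open red symbols for 1 probe each of AT4G29200 and APUM7.

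The remaining symbols, SRO4, CRK38, NAC085 and ARI3, belong to different families. SRO4 is a SIMILAR TO RCD ONE protein, of a small plant family named for RADICAL-INDUCED CELL DEATH1. SRO4 read 181 and 223 in sahy9-1, against 4.40 and 3.39 in Col-0, at least 9.46-fold higher. This family was chosen after its values were seen, and of its 7 other transcripts tested, 1 was called higher, beside 1.62% of all transcripts tested. SRO3 read 369 and 333 in sahy9-1, against 24.9 and 32.5 in Col-0, 10.9-fold higher (limma adjusted p = 0.00114), and with the normexp correction the adjusted p was 0.381. SRO5 was 2.77-fold and SRO2 2.06-fold higher, short of 3-fold (limma adjusted p = 0.00335 and 0.00263). SRO1 was 1.12-fold higher (limma adjusted p = 0.104), and the RCD1 transcripts were between 1.14-fold and 1.28-fold higher. On the adjusted p alone, 5 of the 7 were higher and 0 lower, where 25.3% of all transcripts tested were higher and 24.0% lower.

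CRK38 is a cysteine-rich receptor-like kinase of the plasma membrane. It read 317 and 262 in sahy9-1, against 20.6 and 15.9 in Col-0, at least 13.6-fold higher. Of 25 other transcripts of the family tested, 4 were called, all higher in sahy9-1, namely CRK36, CRK6, CRK7 and CRK13, where 1.62% of all transcripts tested were called higher. With the normexp correction none of these 4 was called. NAC085, a NAC domain transcription factor, read 153 and 138 in sahy9-1, against 6.20 and 4.87 in Col-0, at least 6.84-fold higher. Among 69 other NAC transcripts tested, 6 were called higher and 2, NAP and RD26, lower, beside 1.62% and 1.58% of all transcripts tested. With the normexp correction ANAC087 was the only one of the 6 still called higher, while NAP and RD26 were still called lower. ARI3, of the ARIADNE family of RING-type ubiquitin ligases, read 195 and 106.9 in sahy9-1, against 8.74 and 4.22 in Col-0, at least 6.79-fold higher, with a ratio of 1.82 between its sahy9-1 arrays. Of 6 other ARIADNE transcripts tested with limma, 0 were called. An unadjusted p under 0.05 was reached by 3 of the 6, none with a change of 3-fold, while the methods' t-test gave 2 at that unadjusted level. By the adjusted p alone, 1 of the 6 was higher and 0 lower, where 25.3% of all transcripts tested were higher and 24.0% lower. These families, too, were chosen after the values were seen.

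The other members with a locus had neither a symbol nor a place among the 20. AT3G29560 read 215 and 194 in sahy9-1, against 11.2 and 15.6 in Col-0, and AT3G28570 read 213 and 187 in sahy9-1, against 5.54 and 4.34 in Col-0. AT5G48710, AT2G43960, AT2G40450, AT4G29200, AT2G36325, AT4G02465 and AT5G64790 had bounds between 7.09-fold and 8.65-fold. AT2G15130, AT5G01080, AT1G47265, AT1G30660, AT1G49920, AT2G24255 and AT5G39493 had bounds between 5.85-fold and 6.68-fold, EG522069 had 5.08-fold and NM_126181 had 4.48-fold. The limit of 100 did not fall in a gap. Just inside it were AT1G47265 with 180 and 106, EG522069 with 102 and 114, and NM_126181 with 100.4 and 112 in sahy9-1. Just outside were AT4G08868 with 109 and 98.3, NP168936 with 117 and 98.1, and NR_023045 with 113 and 97.8 in sahy9-1. Without a minimum the flags alone chose 397 transcripts, of which 352 were dimmer than 100 on at least 1 sahy9-1 array.

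A further 33 transcripts met the rule except that they were well above background on 1 of the Col-0 arrays, which was the second array for 32 of them. They included NM_116777, with 3971 and 3671 in sahy9-1, against 12.5 and 31.6 in Col-0, and AT5G55270, with 1709 and 1583 in sahy9-1, against 13.0 and 25.7 in Col-0. The Col-0 signal on the second array was up to 99.9 in this list, for AT5G07610. The list also held TIF3C2, a subunit of translation initiation factor eIF3, with 792 and 636 in sahy9-1, against 13.6 and 20.04 in Col-0. PAB5, a poly(A)-binding protein, read 328 and 375 in sahy9-1, against 24.8 and 26.6 in Col-0. All transcripts named here from this list were picked after their values were seen.

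The 36 transcripts with a locus lay on all 5 chromosomes. Chromosome 5 held 11 (30.6%, beside 23.3% of all matched transcripts), chromosome 1 held 9 (25.0%, beside 26.1%), chromosome 2 held 7 (19.4%, beside 15.7%), chromosome 3 held 6 (16.7%, beside 19.8%) and chromosome 4 held 3 (8.33%, beside 15.0%). The nearest to APUM23, which carries the T-DNA, was AT1G71280, 119 genes away. Members that followed each other on a chromosome lay a median of 835 genes apart.

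AT5G53230 and AT5G53240 were the single pair next to each other, and the next closest pair was 39 genes apart. AT5G53240 read 286 and 257 in sahy9-1, against 4.31 and 3.31 in Col-0, at least 12.8-fold higher. The genes on either side were not called. AT5G53220 read 190 and 158 in sahy9-1, against 251 and 202 in Col-0, a log2 difference of -0.55 (limma adjusted p = 0.0149). On the other side AGP22, an arabinogalactan protein of the cell surface, read 716 and 582 in sahy9-1, against 649 and 627 in Col-0, a log2 difference of -0.16 (limma adjusted p = 0.140).

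**Figure D4:**
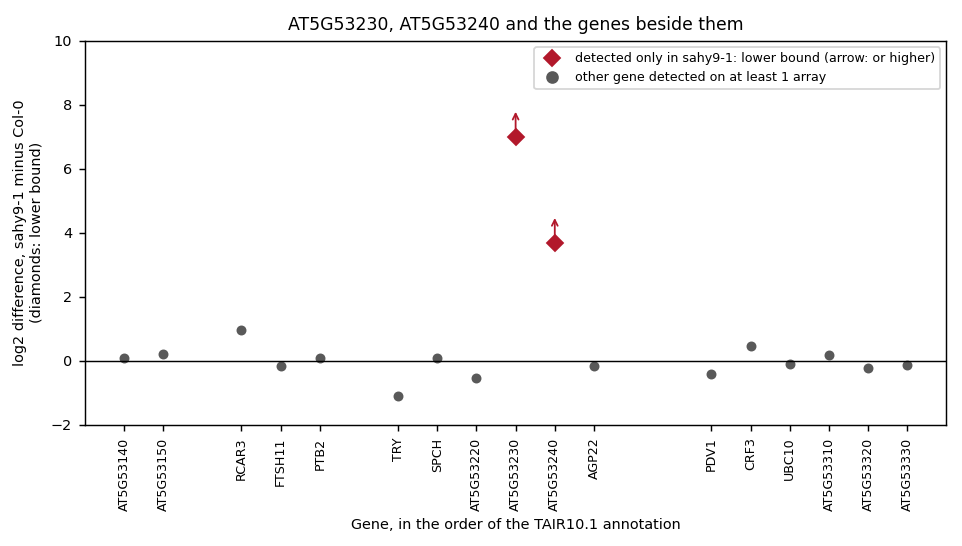
The log2 difference, sahy9-1 minus Col-0, of the genes around AT5G53230 and AT5G53240, in the order of the annotation; a gap is a gene that was not on the array or was not detected on any array. The 2 red diamonds with arrows are lower bounds, 6.99 for AT5G53230 and 3.67 for AT5G53240, and gray points are measured differences of the other genes, among which AT5G53220 is at -0.55 and AGP22 at -0.16.

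The nearest tested gene on each side of the 36 loci, 70 genes in all, did not enter the rule and could be tested. Of these, 5 (7.14%) were called higher in sahy9-1 and 1 (1.43%) lower, beside 1.62% and 1.58% of all transcripts tested. Over the nearest 3 tested genes on each side, 210 in all, 6 (2.86%) were called higher and 4 (1.90%) lower. The median log2 difference of the 70 was -0.0088, and that of all transcripts tested was -0.0046. The 6 that were called are named here. With the normexp correction AT1G30160, AT3G63380, CRK36 and AFP3 were no longer called.

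MRD1, which lies 2 genes from HEI10, read 7211 and 6238 in sahy9-1, against 58.5 and 57.1 in Col-0, 103-fold higher (limma adjusted p = 5.20e-05), a log2 difference of 6.68 that was 4.77 with the normexp correction. AT1G30160, the gene next to AT1G30170, read 2558 and 2437 in sahy9-1, against 126 and 155 in Col-0, 15.8-fold higher (limma adjusted p = 0.000788). A second AT1G30160 transcript read 276 and 277 in sahy9-1, against 19.4 and 19.2 in Col-0, and was among the 33 detected on 1 Col-0 array. AT1G30160 and AT1G30170 thus were both far brighter in sahy9-1, and AT1G30160 was detected in Col-0 while AT1G30170 was not.

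AT3G28580, 2 genes from AT3G28570, read 16023 and 13873 in sahy9-1, against 1261 and 2245 in Col-0, 7.84-fold higher (limma adjusted p = 0.00399). CRK36, 3 genes from CRK38 and of the same family, read 3478 and 3456 in sahy9-1, against 376 and 527 in Col-0, 6.89-fold higher (limma adjusted p = 0.00241). AT3G63380, 3 genes from AT3G63360, read 1635 and 1519 in sahy9-1, against 278 and 308 in Col-0, 4.77-fold higher (limma adjusted p = 0.00103). All 3 of these neighbors were well above background in both genotypes. The gene that was called lower was AFP3, 5 genes from AT3G29560, a member of the family of ABI5-binding proteins. It read 4354 and 3470 in sahy9-1, against 11463 and 9476 in Col-0, a log2 difference of -1.60 (limma adjusted p = 0.00204), just past 3-fold.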

How the data were processed

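Spot intensities were deposited as Agilent Feature Extraction 10.7.1.1 output, background-subtracted by the software per the file headers. The deposited table of log2 values was scaled by the authors to the 75th percentile of each array and set to the Col-0 mean, and was used as a check only. Detection flags were deposited beside the intensities. For spots not significantly above background the deposited intensity equalled its error estimate within 1% in all cases. Control spots and outlier-flagged spots were left out, and spots of a probe were averaged.

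The log2 intensities minus each array's 75th percentile were fitted with limma 3.58.1 (R 4.3.3), unpaired, on 22417 transcripts that reached an intensity of 100 on each array of 1 genotype, 1 probe per transcript, with Benjamini-Hochberg adjustment. Tables were handled with pandas 2.3.3. Names and gene order came from TAIR10.1. Since that table lacks product descriptions, functional classes were matched on symbols and synonyms, and promoter motifs were not searched.

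The members and lists were chosen with earlier results of these data known. The text names the 20 transcripts with the highest log2 level, those in a listed class, adjacent pairs, the 3 on each side of the signal limit, neighbors that were called and those with another probe detected in Col-0. Those with a symbol, the remaining transcripts and families beyond the pumilio genes were added after the values were seen. Alternatives covered the signal minimum, the detection flag, outlier spots, background correction, scaling, the filter, the test and single arrays.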

Additional observations from a re-analysis of the deposited data

How the results depend on the processing

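The number of transcripts detected only in sahy9-1 was 92 at a minimum of 50 and 20 at a minimum of 200, and 10 when the significance flag replaced the stricter flag. Leaving out 1 array gave 46 to 77, with 77 without the second Col-0 array. All 45 remained each time, which the rule fixes, since an array left out only drops a condition. The number detected only in Col-0 was 30 at a minimum of 50 and 3 at 200. The median log2 bound of 3.23 was 3.41 without scaling, 2.88 with the floor at the 1st percentile of detected signals and 3.09 to 3.37 without 1 array. It was 0.48 after normexp correction with an offset of 50, which by construction shrinks differences between low signals, and the bound was then negative for NAC085 (-0.0651), AT2G24255 (-0.0148), AT5G39493 (-0.0131) and NM_126181 (-0.30). Calls over all transcripts were 363 higher and 354 lower; 74 were higher after normexp, and the methods' t-test gave 8 higher and 2 lower after Benjamini-Hochberg adjustment (334 and 292 past 3-fold without it). Leaving out 1 array gave 311 to 449 higher and 312 to 456 lower. With the replicate number as a block, 368 were higher and 371 lower, and 6 of the 70 neighbors were called; the replicate differences correlated between the genotypes at r = 0.44 across genes, but 2 pairs that share only a number do not establish pairing. Over the nearest 3 tested genes on each side, 10 of 210 were called, beside 6 of 70 for the nearest gene on each side. Of the 20 genes outside the 45 that were called as a neighbor or with a family, 14 lost the call after normexp, 19 with the methods' t-test and 2 without the signal filter, and 5 without the first Col-0 array, 4 without the first sahy9-1 array and 2 without the second; none did with the block. AFP3 also fell short of 3-fold when probes were averaged and without the first Col-0 or the second sahy9-1 array. With 2 arrays a genotype, signals near 20 limit what counts as detected.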
